A study of Salmo trutta with 24 samples.

Results

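The insulin-like growth factor binding proteins (IGFBPs) were followed in the liver of individual male brown trout (Salmo trutta) exposed to the estrogen 17β-estradiol (E2) or to the herbicide linuron. Members were all transcripts whose first annotation hit named an insulin-like growth factor binding protein. There were 20 such transcripts of 66359 listed in at least 1 of the 6 deposited count tables, and they carried 10 gene names. The assembly had been made without a genome, so that each transcript is a contig named by its assembly component, and contigs under 1 name can be isoforms, fragments or separate gene copies. The symbols used here were paired with the annotation by its wording.

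Liver RNA had been sequenced from 24 adult, sexually mature males, each an individual library. Fish were exposed to 1.9, 18.1 or 34.4 ng E2/l or to 1.7, 15.3 or 225.9 µg linuron/l in water (3 fish per group), and 6 fish were unexposed controls. The exposure labels give 4 days, whereas the treatment text of the labels gives 14 days for both chemicals. Each treatment was held in 1 tank and the controls in a pair of tanks, and the labels do not say which control fish came from which tank, so that tank and concentration cannot be told apart. Each table holds 1 exposed group beside the same 6 control fish, and all comparisons with control therefore share those fish.

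IGFBPs are secreted proteins that bind the insulin-like growth factors, carry them in blood and tissue fluid, and set how much reaches the receptors. The liver is a main source of circulating IGF1 and of several of its binding proteins. Zebrafish carry many IGFBP genes as an a and a b copy, left by a genome duplication in the ancestor of teleost fish, and the salmonid lineage passed through a further duplication, so that contigs under 1 zebrafish name may come from more than 1 trout locus.

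The 10 names were unequally represented. The annotation igfbp2a took 5 contigs, igfbp1a and igfbp5b took 3 each, igfbp6b and igfbp7 took 2 each, and igfbp1b, igfbp2b, igfbp5a, igfbp5 (a hit in another fish than zebrafish) and the acid-labile subunit igfals took 1 each. The 20 contigs fell into 11 assembly components, and the igfbp5 contig shared its component with all 3 igfbp5b contigs. All 6 tables listed 15 of the contigs, from 8 genes. The deposited tables hold only transcripts with about 1 CPM (counts in a library scaled to a total of 1000000) or more in at least 3 of their 9 fish, and igfbp5a (comp67685_c0_seq1) was listed only in the table of 34.4 ng E2/l. Its counts in the other 15 exposed fish are therefore not known.

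Total counts per fish ranged from 3913178 to 10736246. All values per fish below are CPM of the library total after TMM scaling, on 1 scale for the 24 fish, and levels are compared between fish and not between genes because contig lengths were not used. Against the other 23 libraries, the median correlation of log2 values was lowest for fish 2 at 15.3 µg linuron/l (0.823), followed by fish 3 of that group (0.854) and control fish 1 (0.858), and reached 0.915 elsewhere. Hepatocyte markers were found for 12 of 12 genes, with summed levels of 113206 to 127135 CPM at 34.4 ng E2/l and 135344 to 211658 CPM in controls. Of their 169 contigs, 1 was higher and 32 were lower at 34.4 ng E2/l (26 of apobb and 6 of fgg). Over all transcripts, 1.47% were higher and 0.791% were lower there. The 169 contigs had a median log2 fold change of -0.9 at 34.4 ng E2/l, with 6 above 0. Of them 135 had an unadjusted edgeR p under 0.05, against 7986 of 59151 transcripts. The part of these markers in the results below was not tested. Summed hepatocyte marker levels were 109521 to 147354 CPM at 1.7 µg linuron/l (median log2 fold change -0.61) and 102105 to 146537 CPM at 225.9 µg linuron/l (-0.63). In these groups 0 marker contigs were called, and 89 and 77 of 169 had an unadjusted edgeR p under 0.05. Over all transcripts, 3589 of 57238 and 4956 of 57544 did. The summed levels at 34.4 ng E2/l and in controls were 365 to 485 and 162 to 674 CPM for erythrocyte markers, 210 to 261 and 182 to 515 CPM for leukocyte markers, 17.6 to 23.2 and 20.4 to 32.6 CPM for endothelial markers, and 26.1 to 32.1 and 30.2 to 68.0 CPM for stellate or fibroblast markers, with 0 contigs called. Biliary markers had 409 to 500 and 416 to 569 CPM with 1 contig lower, and exocrine pancreas markers had 0 to 2.69 and 0 to 9.27 CPM with 0 called. In liver as a whole, fewer cells of a type and less RNA per cell cannot be told apart.

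At 34.4 ng E2/l the IGFBP genes moved in both directions. igfbp1a was far lower in exposed fish than in control fish, igfbp2b and 4 of the 5 contigs of igfbp2a were 3.60 and 3.75 times as high by group means, and igfbp5a was counted in every exposed fish and in no control fish. By the quasi-likelihood test of edgeR, adjusted by Benjamini-Hochberg across the whole table (threshold 0.05), 5 of the 18 contigs tested differed from control: 4 were higher (2 of igfbp2a, and igfbp2b and igfbp5a) and 1 was lower (igfbp1a). igfbp5a could enter that table only through the exposed fish, so that it had to differ, and its call is a description and no support. Over all 59151 transcripts of that table, 2.26% were called, 1.47% as higher (870) and 0.791% as lower (468). Scaling by library totals in place of TMM gave 1237 higher and 319 lower transcripts and shifted the median of all log2 fold changes by 0.20. The median log2 fold change was 0.50 over the 18 contigs, igfbp5a included, and 0.02 over all transcripts. The 3 exposed and 6 control fish did not overlap, on the scaling of that table, for 8 of the 18 contigs (7 above and 1 below the controls), a relation that 8.79% of all transcripts showed. The 7 above include igfbp5a, whose place was fixed by its listing, and 4 contigs of 1 igfbp2a component. Nothing about the family is read from this count.

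**Figure D1:**
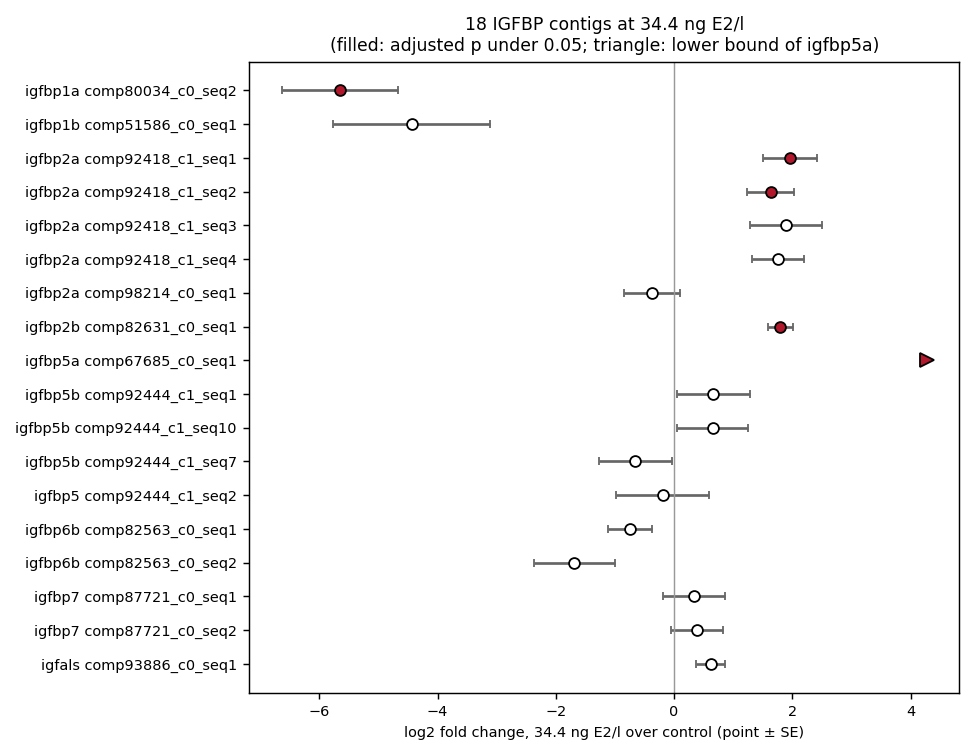
Log2 fold change of 34.4 ng E2/l over control (x axis, edgeR, point ± SE) for the 18 IGFBP contigs tested (y axis), from 3 exposed and 6 control fish; filled points had an adjusted p under 0.05 and the triangle is the lower bound of igfbp5a. igfbp1a lies farthest to the left at -5.66, and 4 contigs of igfbp2a and the contig of igfbp2b lie between 1.63 and 1.96.

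igfbp1a encodes a small circulating binding protein that in fish and mammals rises with fasting, stress hormones and hypoxia and is held down by insulin. Its most counted contig, comp80034_c0_seq2, had 7.36, 14.2 and 4.40 CPM in the 34.4 ng E2/l group, against a lowest value of 42.2, a median of 291 and a highest value of 1328 CPM in the 6 control fish. All 3 exposed fish lay below every control fish. The mean was 49.4-fold lower than in controls, and the fitted log2 fold change was -5.66 ± 0.98 (SE; edgeR adjusted p = 0.00466). Control fish varied widely, the highest having 31.4 times the level of the lowest. Control fish 1 held the highest value, and without it the mean at 34.4 ng E2/l was 28.6-fold lower than the mean of the 5 remaining controls (247 ± 173 CPM, SD), with a log2 fold change of -4.87. It stayed under the threshold in the 8 other processing alternatives. Of these, the fit with no filter repeats the main fit, because every listed transcript already had counts in at least 3 fish. The sum per annotation held the same igfbp1a counts, because no other igfbp1a contig was listed for that group. In the replicate block only control fish 1 to 3 were set against exposed fish, because control fish 4 to 6 had no exposed fish of their number. The call was lost without exposed fish 1 (adjusted p = 0.0686) or exposed fish 3 (0.0592), when 2 exposed fish remained.

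In the other 5 exposed groups no difference of igfbp1a from control passed the adjusted threshold. It measured 132, 101 and 113 CPM at 1.9 ng E2/l and 106, 72.5 and 52.4 CPM at 18.1 ng E2/l. These 6 fish lay within the range of the controls, in its lower part. At 1.7 µg linuron/l it measured 18.4, 24.1 and 28.4 CPM, below every control fish. At 15.3 µg linuron/l the fish had 70.9, 157 and 331 CPM, and at 225.9 µg linuron/l they had 13.4, 150 and 13.5 CPM. The group at 15.3 µg linuron/l thus lay inside the control range, while at 225.9 µg linuron/l fish 1 and 3 lay below it and fish 2 inside it.

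The log2 fold changes of igfbp1a against control were -1.92 ± 0.77, -2.51 ± 0.83 and -5.66 ± 0.98 from the lowest to the highest E2 concentration (SE). For linuron they were -4.21 ± 0.89, -1.25 ± 0.83 and -2.89 ± 1.03 in the same order, so that the group at the middle concentration was nearest to control. The adjusted p was 1.0 at both lower E2 concentrations by edgeR, and 0.513, 0.978 and 0.424 for linuron. At 1.7 µg linuron/l the unadjusted p was 0.000312, and the contig was called there by DESeq2 (adjusted p = 7.14e-05) and by edgeR's exact test (0.00465). Ordered by medians, the groups ran from 34.4 ng E2/l (7.36 CPM) through 225.9 µg linuron/l (13.5), 1.7 µg linuron/l (24.1), 18.1 ng E2/l (72.5), 1.9 ng E2/l (113) and 15.3 µg linuron/l (157) to control (291). Among neighbours in this order, the fish of 1.7 µg linuron/l and 18.1 ng E2/l did not overlap, and all other neighbours did.

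**Figure D2:**
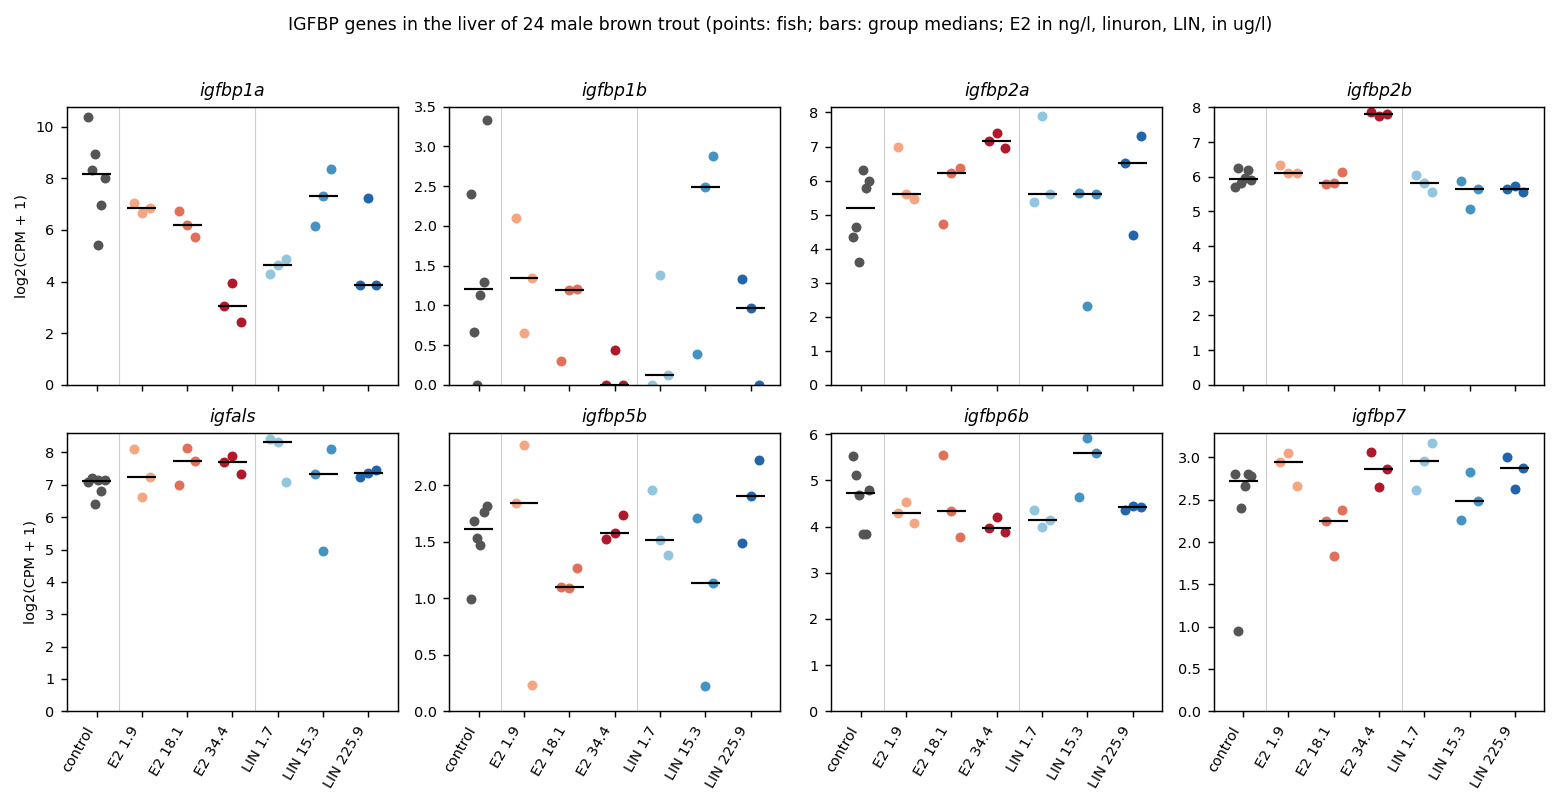
Level of 8 IGFBP genes, as log2(CPM + 1) summed over its contigs listed in all 6 tables (y axes), in the 24 fish by group (x axes, E2 in ng/l and linuron in µg/l); points are fish and bars are group medians. The igfbp2b points of the 3 fish at 34.4 ng E2/l stand above all other fish, and the igfbp1a points of the controls spread from 42.2 to 1328 CPM.

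The other igfbp1a contigs belonged to a second component and followed single fish. Contig comp54121_c0_seq1 was listed in 3 tables. It had 211, 6 and 12 counts in the fish at 18.1 ng E2/l, 4, 2 and 15 at 1.7 µg linuron/l and 2, 290 and 144 at 15.3 µg linuron/l. In control fish 1 it had 1707 counts, and the other 5 control fish had 0 to 8. Contig comp54121_c0_seq2 was listed only at 15.3 µg linuron/l, with 1, 80 and 44 counts, against 591 counts in control fish 1 and 0 to 2 in the other controls. The high counts of this component thus came from control fish 1, fish 1 at 18.1 ng E2/l and fish 2 and 3 at 15.3 µg linuron/l. Control fish 1 and the 2 fish at 15.3 µg linuron/l were also the libraries that stood farthest from the rest, and whether these facts are linked was not tested.

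igfbp1b, the other copy of the same binding protein, was near the limit of detection. At 34.4 ng E2/l it had 0, 0.351 and 0 CPM (3 counts in all), against 0 to 9.08 CPM with a median of 1.32 CPM in controls (115 counts in all). The ratio of exposed to control was 0.0409, with an exact 95% interval of 0.00831 to 0.122 that covers counting error only. The ranges overlapped at 0, and the log2 fold change of -4.44 ± 1.33 did not pass the threshold by edgeR's quasi-likelihood test (adjusted p = 0.111). It did by edgeR's exact test (0.0227). In the remaining groups, fitted log2 fold changes ran from -2.50 at 1.7 µg linuron/l to 0.35 at 15.3 µg linuron/l, with none called.

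igfbp2b encodes a binding protein that the liver secretes and that, in mammals, is abundant in serum. It measured 234, 214 and 224 CPM at 34.4 ng E2/l, against a lowest value of 50.8, a median of 60.3 and a highest value of 75.2 CPM in controls. The groups were far apart and each was narrow, with means of 224 ± 9.75 CPM in exposed fish and 62.3 ± 9.44 CPM in control fish (SD, n = 3 and 6). This was a 3.60-fold higher mean and a log2 fold change of 1.80 ± 0.21 (edgeR adjusted p = 0.000105). The call held in all 9 fits that left out 1 fish.

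No other group showed igfbp2b outside 32.7 to 79.2 CPM. At 1.9 ng E2/l it measured 79.2, 67.7 and 67.7 CPM, and at 18.1 ng E2/l 54.6, 55.3 and 69.3 CPM. With linuron it measured 65.6, 55.7 and 46.2 CPM at 1.7 µg/l, 57.8, 32.7 and 49.5 CPM at 15.3 µg/l, and 48.8, 51.9 and 46.2 CPM at 225.9 µg/l. The fish at the highest linuron concentration lay partly below the lowest control and partly just above it. On the scaling of the table of that group, all of these fish lay below every control. Their log2 fold change of -0.38 ± 0.24 was not called (edgeR adjusted p = 0.721).

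The difference between E2 groups was tested directly in 1 edgeR model of the 7 groups, over the 50282 transcripts listed in all 6 tables. igfbp2b was higher at 34.4 ng E2/l than at the 2 lower concentrations by 1.78 ± 0.20 on the log2 scale (adjusted p = 1.04e-05), and higher at 34.4 ng E2/l than at 225.9 µg linuron/l by 2.19 ± 0.26 (adjusted p = 1.97e-05). It was 1 of 15 IGFBP contigs called in each contrast, where 1.26% and 0.933% of all transcripts were called. igfbp1a was not called in either, with -3.44 ± 0.90 against the lower E2 groups (adjusted p = 0.0575) and -2.77 ± 0.93 against the highest linuron group (0.192). A lower igfbp1a at 34.4 ng E2/l than at the lower E2 concentrations is thus not shown by this test. In a model of only the fish compared igfbp1a was called, with -3.45 on the log2 scale (edgeR adjusted p = 0.000669). It was called in all 4 processing alternatives of this contrast (adjusted p up to 0.0432 by edgeR or DESeq2). Of the 9 fits that left out 1 fish it was called in 0 (edgeR adjusted p = 0.0595 to 0.266).

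**Figure D3:**
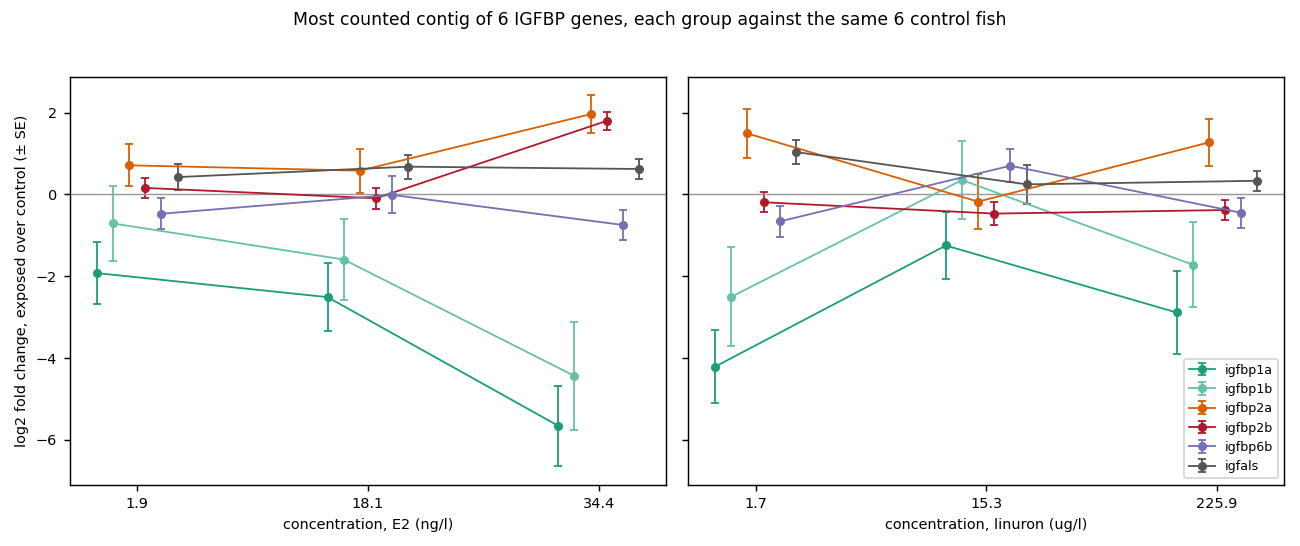
Log2 fold change over the 6 shared control fish (y axis, edgeR, ± SE) of the most counted contig of 6 IGFBP genes at the 3 concentrations of E2 in ng/l (left) and of linuron in µg/l (right), 3 fish per group. igfbp2b lies at 1.80 at 34.4 ng E2/l and between -0.47 and 0.16 in the other groups, and igfbp1a lies below 0 in all 6 groups.

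igfbp2a, the other copy, was counted on 2 components with unlike values at 34.4 ng E2/l, a difference that was not tested itself. The 4 contigs of component comp92418_c1 together had 137, 165 and 121 CPM at 34.4 ng E2/l, against 9.98 to 72.5 CPM in controls, a 3.75-fold higher mean. All 3 exposed fish lay above every control. Contigs comp92418_c1_seq1 (log2 fold change 1.96 ± 0.46, edgeR adjusted p = 0.0378) and comp92418_c1_seq2 (1.63 ± 0.39, 0.0431) were called. Contigs seq3 (1.90 ± 0.61) and seq4 (1.76 ± 0.44) of that component had similar fold changes with adjusted p values of 0.145 and 0.0507. These calls were narrow: seq1 was called in 4 and seq2 in 3 of the 9 fits that left out 1 fish, and neither was in any fit without 1 of the exposed fish.

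The fifth contig, comp98214_c0_seq1, had 3.74, 2.58 and 2.89 CPM at 34.4 ng E2/l, against 1.19 to 7.05 CPM in controls. These ranges overlapped entirely, and its log2 fold change was -0.38 ± 0.47 (adjusted p = 0.828). It made up 1.54 to 2.65% of the igfbp2a counts of a fish at 34.4 ng E2/l, against 3.59 to 15.5% in controls. Over all 5 contigs igfbp2a had 141, 167 and 124 CPM at 34.4 ng E2/l, and 78.7 CPM at most in controls, and the counts summed per annotation gave a log2 fold change of 1.75 that was not called (edgeR adjusted p = 0.0625).

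**Figure D4:**
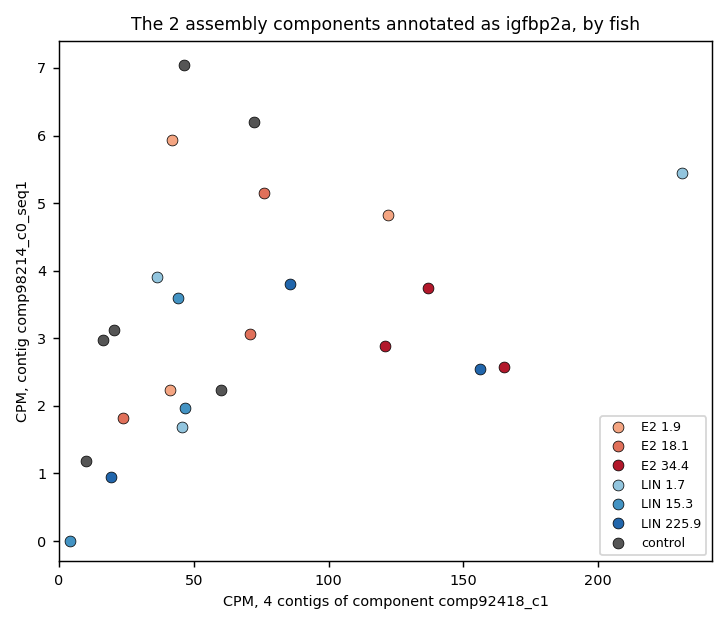
CPM of the igfbp2a contig comp98214_c0_seq1 (y axis) against the summed CPM of the 4 contigs of component comp92418_c1 (x axis), 1 point per fish, by group. The 3 fish at 34.4 ng E2/l lie between 121 and 165 CPM on the x axis, to the right of all 6 controls, and between 2.58 and 3.74 CPM on the y axis, inside the control range.

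Single fish of other groups reached the igfbp2a levels seen at 34.4 ng E2/l. Summed over 5 contigs, fish had 127, 48.0 and 43.3 CPM at 1.9 ng E2/l and 25.4, 73.8 and 81.2 CPM at 18.1 ng E2/l. With linuron they had 40.2, 236 and 47.5 CPM at 1.7 µg/l, 48.9, 3.97 and 47.9 CPM at 15.3 µg/l, and 89.6, 20.3 and 158 CPM at 225.9 µg/l. The highest of all 24 fish was fish 2 at 1.7 µg linuron/l and the lowest was fish 2 at 15.3 µg linuron/l. The medians ran from 141 CPM at 34.4 ng E2/l through 89.6 (225.9 µg linuron/l), 73.8 (18.1 ng E2/l), 48.0 (1.9 ng E2/l), 47.9 (15.3 µg linuron/l) and 47.5 (1.7 µg linuron/l) to 38.6 CPM in controls, and all neighbours in this order overlapped.

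igfbp5a encodes a binding protein best known in mammals from bone and muscle, where it also binds extracellular matrix. It had 8.88, 7.96 and 10.5 CPM at 34.4 ng E2/l (76, 68 and 91 counts) and 0 counts in all 6 control fish, in which 3 counts correspond to 0.347 to 0.713 CPM. The mean of 9.13 ± 1.30 CPM (SD, n = 3) was at least 19.4-fold higher than in controls, taking 3 counts per control library as the floor. As the contig was listed only through these fish, its test was fixed by the listing and its p is not given. Since fewer than 3 fish then carried counts, the contig could not be fitted without any 1 of the exposed fish.

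The igfbp5b contigs and the igfbp5 contig of the same component were low in every fish. The igfbp5b contigs listed in all tables summed to 1.87, 1.99 and 2.32 CPM at 34.4 ng E2/l, against 0.993 to 2.52 CPM in controls (median 2.05), inside the control range. The 3 igfbp5b contigs had log2 fold changes of 0.67, 0.65 and -0.66 there, and igfbp5 had -0.19, with adjusted p values of 0.736 to 0.961 by edgeR. The igfbp5b contig comp92444_c1_seq7 had a log2 fold change of -2.40 at 18.1 ng E2/l (edgeR adjusted p = 1.0), and comp92444_c1_seq10 had 1.45 at 225.9 µg linuron/l (edgeR adjusted p = 0.440).

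igfbp6b encodes a binding protein that in mammals prefers IGF2 to IGF1. Summed over its contigs it had 14.7, 17.6 and 13.8 CPM at 34.4 ng E2/l, against 13.3 to 44.9 CPM with a median of 25.6 CPM in controls. The exposed fish lay at the low end of the control range, and contigs comp82563_c0_seq1 (log2 fold change -0.75 ± 0.37) and comp82563_c0_seq2 (-1.69 ± 0.68) were not called (edgeR adjusted p = 0.404 and 0.271). The highest igfbp6b levels of any exposed fish were 59.2 and 47.3 CPM, in fish 2 and 3 at 15.3 µg linuron/l.

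igfbp7, which in mammals binds IGFs only weakly and is counted among the related proteins, had 7.36, 5.27 and 6.25 CPM at 34.4 ng E2/l, against 0.926 to 5.99 CPM with a median of 5.59 CPM in controls. The ranges overlapped, and both contigs had small log2 fold changes (0.34 ± 0.53 and 0.39 ± 0.44, edgeR adjusted p = 0.871 and 0.805). The igfbp7 level of fish in the other groups ran from 2.57 CPM at 18.1 ng E2/l to 8.02 CPM at 1.7 µg linuron/l.

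igfals encodes the acid-labile subunit, which in mammals joins IGF and its binding protein in a large circulating complex. It had 207, 235 and 160 CPM at 34.4 ng E2/l, against 83.7 to 147 CPM with a median of 138 CPM in controls. All 3 exposed fish lay above the controls, yet the log2 fold change of 0.62 ± 0.24 was not called (edgeR adjusted p = 0.247). The lower E2 groups had similar levels, 97.3 to 277 CPM at 1.9 ng E2/l and 127 to 280 CPM at 18.1 ng E2/l. In each of them 2 of the 3 fish lay above all controls. Their log2 fold changes were 0.42 ± 0.31 and 0.68 ± 0.29, and neither was called. At 1.7 µg linuron/l igfals had 341, 318 and 136 CPM, with a log2 fold change of 1.04 ± 0.30 (edgeR adjusted p = 0.569). Fish 1 and 2 of that group lay far above the controls and fish 3 within them. At 225.9 µg linuron/l the 3 fish (151, 164 and 174 CPM) lay just above the controls, with 0.33 ± 0.24 (adjusted p = 0.78). The lowest igfals level of all was 30.2 CPM in fish 2 at 15.3 µg linuron/l.

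In the 5 other comparisons with control, no IGFBP contig was called by edgeR's quasi-likelihood test. At 1.9 ng E2/l this was 0 of 17 contigs (1 at an unadjusted p under 0.05), and at 18.1 ng E2/l 0 of 18 (3 unadjusted), where 0% of all transcripts were called at either concentration. At 1.7 µg linuron/l it was 0 of 18 (5 unadjusted) and at 15.3 µg linuron/l 0 of 17 (0 unadjusted), again with 0% of all transcripts called. At 225.9 µg linuron/l it was 0 of 17 (3 unadjusted), where 0.153% of all transcripts were called. Over all transcripts, the unadjusted counts were 2255 of 55449 at 1.9 ng E2/l and 1448 of 56914 at 18.1 ng E2/l. For linuron they were 3589 of 57238, 2698 of 56199 and 4956 of 57544 from the lowest to the highest concentration. The 5 at 1.7 µg linuron/l include igfbp1a contig comp54121_c0_seq1, whose log2 fold change reversed without control fish 1. DESeq2 and edgeR's exact test also called 0 IGFBP contigs in these comparisons, except for igfbp1a at 1.7 µg linuron/l with each of them. Against the lower linuron concentrations, 225.9 µg/l gave 0 of 15 called (0 unadjusted), with DESeq2 0 as well, where 0.0975% of all transcripts were called.

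The median log2 fold changes of the contigs against control were 0.29, -0.14 and 0.50 from the lowest to the highest E2 concentration and 0.04, -0.32 and 0.33 for linuron, beside -0.02 to 0.02 for E2 and -0.03 to 0.01 for linuron over all transcripts. At 1.9 ng E2/l 12 of 17 contigs had a log2 fold change above 0, and at 15.3 µg linuron/l 5 of 17 did. These are medians over contigs that share genes and fish, and contigs were called only at 34.4 ng E2/l. The median at 34.4 ng E2/l includes igfbp5a, whose place was fixed by its listing. The groups do not have the same contigs listed, so that these medians are not a series over concentrations.

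The genes were then compared fish by fish within groups, with group means of log2(CPM + 1) removed and fish permuted within groups 100000 times. Of the 28 pairs of the 8 genes listed in all tables, 6 had an unadjusted p under 0.05 for Pearson's r and 1 remained after adjustment. This pair was igfbp1a and igfbp6b (r = 0.64, permutation p = 0.00097, adjusted 0.0272, n = 24), which were high or low together. Without the 3 fish at 34.4 ng E2/l, r was again 0.64 and the adjusted p was 0.0591 by the permutation test. Spearman's rho was 0.63 (permutation p = 0.00243, adjusted 0.068), and r was 0.46 without control fish 1 and 4, the fish farthest from the median igfbp1a. Control fish 1 was the highest control for both genes, and fish 2 and 3 at 15.3 µg linuron/l had the highest igfbp6b of exposed fish. The libraries of these fish stood farthest from the rest, and whether these facts are linked was not tested. igfals and igfbp2a had r = 0.67 (permutation p = 0.00567, adjusted 0.0794), and 0.53 without fish 2 and 3 at 15.3 µg linuron/l. The copies of 1 protein did not pass this test: r was 0.27 for igfbp1a and igfbp1b (permutation, adjusted p = 0.565) and 0.46 for igfbp2a and igfbp2b (0.37). igfbp1a, which was lower at 34.4 ng E2/l, had r = -0.51 with igfbp2a and -0.26 with igfbp2b within groups (permutation, adjusted p = 0.213 and 0.511).

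Of 27905 contigs of at least 1 CPM on average, those whose levels over the 24 fish were most like igfbp2b were leucine rich repeat containing 58b (r = 0.96), aquaporin 12 (0.94) and acyl-CoA synthetase long-chain family member 1 (0.91). For igfbp1a they were unc-51-like kinase 1b (0.89), a PTC7 protein phosphatase homolog (0.88) and testis expressed 15 (0.86). For igfbp6b they were an uncharacterized protein (0.90), a cyp8b1 contig (0.89) and an annexin A11a contig (0.89), and for igfbp2a an ecdysoneless homolog (0.84), an aldehyde dehydrogenase 2-like contig (0.83) and a hematological and neurological expressed 1-like contig (0.82). These correlations describe fish that include the exposure groups. They are the highest of the contigs searched, a choice that by itself raises r, and were not tested.

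The ligands that IGFBPs bind and the receptors were counted at 34.4 ng E2/l beside the 2.26% of all transcripts called there, a share at which 0 calls in lists of this size say little. Of the listed ligand genes 2 of 8 were found, igf1 and igf2b, with 0 of 8 contigs called (1 at an unadjusted p under 0.05). The median log2 fold change of 0.51 mostly reflects igf1, which had 7 of these contigs. The 1 igf2b contig had -0.46 ± 0.31. igf1 summed to 165 to 257 CPM at 34.4 ng E2/l, against 46.7 to 217 CPM in controls, and igf2b to 39.1 to 61.3 CPM, against 40.9 to 114 CPM. Both ranges overlapped those of the controls. Of the receptor genes 3 of 8 were found (igf2r and the insulin receptors insra and insrb), with 0 of 19 contigs called (0 unadjusted) and a median of -0.02.

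Along the growth hormone axis, which drives hepatic igf1, 9 of 18 genes were found, with 31 contigs tested at 34.4 ng E2/l. Of these, 0 were higher and 2 were lower (0.791% of all transcripts were lower). The 2 were among the contigs of ghra, a growth hormone receptor (log2 fold changes -1.17 ± 0.27 and -1.24 ± 0.27, edgeR adjusted p = 0.0341 and 0.0242). Summed over its 4 contigs listed in all 6 tables, ghra had 29.7 to 31.2 CPM in these fish, against 37.2 to 71.3 CPM in controls, without overlap. The other receptor found, ghrb, had 39.7 to 79.6 CPM, against 40.6 to 73.4 CPM in controls, with overlap. The 31 contigs of the axis had a median log2 fold change of -0.48, with 1 above 0 and 3 at an unadjusted edgeR p under 0.05. Among 105 contigs of insulin and IGF signalling genes, 0 were higher and 3 were lower, all of grb7, an adaptor that binds activated receptor kinases (log2 fold changes -4.71, -4.42 and -2.43, edgeR adjusted p = 0.0158, 0.0440 and 0.0488). All 3 calls were lower and of 1 gene, beside the 0.791% of all transcripts that were lower. The 105 contigs had a median log2 fold change of -0.26, with 32 above 0. Of them 21 had an unadjusted edgeR p under 0.05, against 7986 of 59151 transcripts. Nothing about either list as a whole is read from these values. Of 21 contigs of IGFBP proteases and their inhibitors and 119 contigs of genes known to regulate igfbp1, 0 were called in either direction (0 and 11 unadjusted). Their median log2 fold changes were -0.23 and -0.04, with 1 of 21 and 58 of 119 above 0, values with no test of the lists. At 225.9 µg linuron/l, 0 contigs of these lists were called. Against the lower E2 groups, 3 grb7 contigs and nfe2l2a (-0.81 ± 0.21, edgeR adjusted p = 0.0489) were lower and rps6kb1b (1.46 ± 0.37, 0.0492) was higher at 34.4 ng E2/l, where 1.26% of all transcripts were called. Against 225.9 µg linuron/l, where 0.933% were, another nfe2l2a contig (-1.93 ± 0.39, edgeR adjusted p = 0.0103) and grb7 contig comp91916_c0_seq36 (-4.35 ± 1.01, 0.0321) were lower at 34.4 ng E2/l.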

How the data were processed

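RNA-Seq had been run on individual livers by the authors. According to the labels and the methods, reads were assembled de novo, mapped back with Bowtie2 2.1.0 reporting 1 best hit per read, and counted per transcript with SAMtools 0.1.18, so that near-identical contigs, alleles or gene copies can share or lose reads. The 6 deposited tables hold raw counts as made by the authors, unnormalized, 1 exposed group and the 6 controls each; their fold change and p-value columns were not used. The IGFBP members and the gene lists were chosen with earlier results of these data known.

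Counts were tested in R 4.3.3 with edgeR 4.0.16 (quasi-likelihood test, TMM, at least 1 count in at least 3 fish, no replicate block), fitted over each whole table, with Benjamini-Hochberg adjustment and a threshold of 0.05, two-sided. Exposed groups were compared in 1 model of the 7 groups. The SE of a log2 fold change is its size over the square root of F. Alternatives were library totals, DESeq2 1.42.0, edgeR's exact test (prior degrees of freedom 10), no filter, a 5 CPM filter, sums per annotation, a replicate block, the 7-group model and leaving out each fish. Tests were tried on simulated counts. Named were all IGFBP genes, a gene being represented by its most counted contig; contigs called; ligands, receptors and called contigs of the lists; and the 3 annotated contigs of at least 1 CPM with the highest correlation with each IGFBP gene. Fish come from shared tanks, so p-values measure the spread between fish only. Intervals cover counting error only. The RefSeq gene table for brown trout held 4 of the 10 symbols and no sequences were used.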

Additional observations from a re-analysis of the deposited data

Results flagged for a closer look

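Among the 6 control fish, 5 levels stood apart from the rest by Dixon's criterion, of 54 extremes examined; about 1 group in 20 is expected to pass it by chance. All 4 that concern igfbp1a were the highest value and came from control fish 1: 1328 CPM for contig comp80034_c0_seq2 and 1328 CPM for the gene sum, which rests on that contig, 283 CPM for comp54121_c0_seq1 and 97.8 CPM for comp54121_c0_seq2. The next highest control had 485 CPM of comp80034_c0_seq2. For igfbp7, control fish 2 was the lowest, with 0.926 CPM against 4.28 to 5.99 CPM in the other controls.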

How the results depend on the processing

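At 34.4 ng E2/l, the 5 IGFBP contigs called became 3 of 10 names with counts summed per annotation (igfbp1a, igfbp2b and igfbp5a) and 2 of 15 contigs in the 7-group model (igfbp1a and igfbp2b; igfbp5a was not in all tables). Leaving out 1 fish gave 1 to 6. The count was 3 without control fish 2 or 5, 2 without exposed fish 2, and 1, igfbp2b, without exposed fish 1 or 3. Counts from fits that held igfbp5a include its call, which was fixed by its listing. Without any 1 exposed fish igfbp5a could not be fitted, which lowers those counts. Library totals, DESeq2, the exact test, no filter and the 5 CPM filter gave 5 to 7. The fit with no filter is the main fit again, because every listed transcript already had counts in at least 3 fish. At 1.7 µg linuron/l, igfbp1a made the count 1 in place of 0 with DESeq2 and with the exact test. Against the lower E2 groups, igfbp1a made it 2 in place of 1 with library totals, DESeq2, the 5 CPM filter and only the fish compared. In all other comparisons the count did not change. The covariation of IGFBP genes passed for 0 pairs in place of 1 without the fish of 34.4 ng E2/l (igfbp1a and igfbp6b, r = 0.64 in both, adjusted p = 0.0591 by permutation).

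Equal fish numbers did not pair the fish (r of deviations with the control of the same number -0.41 to 0.22). With a replicate block, 7 contigs, igfbp5a among them, were called at 34.4 ng E2/l and 1, igfbp1a, at 1.7 µg linuron/l. In that fit control fish 4 to 6 had no exposed fish of their number and added nothing to the fold changes.

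For contigs called in a comparison by the main fit or by any alternative, no log2 fold change reversed in 181 values. Of 2006 values of contigs called by no fit of a comparison 110 did, the largest being comp54121_c0_seq1 at 1.7 µg linuron/l, with -6.16 and, without control fish 1, 0.28. Over all transcripts at 34.4 ng E2/l, 1338 calls (870 higher) became 2109 (1237 higher) with the exact test, 2844 (1194 higher) with DESeq2, 785 (517 higher) over sums per annotation and 723 in the 7-group model. At 225.9 µg linuron/l, 88 became 763 with DESeq2, 448 with the exact test, 151 with the 5 CPM filter, 133 in the 7-group model and 34 with the replicate block. In the groups at 1.9 ng E2/l, 18.1 ng E2/l, 1.7 µg linuron/l and 15.3 µg linuron/l, 0 became 12, 1, 204 and 9 with DESeq2 and 3, 2, 83 and 16 with the exact test; at 1.7 µg linuron/l the block gave 22 and the 7-group model 1, and at 15.3 µg linuron/l that model gave 5. In the direct contrasts DESeq2 gave 1780 in place of 634 (lower E2), 188 in place of 49 (lower linuron) and 1328 in place of 469 (highest linuron). For these, library totals gave 1179 (lower E2), the 5 CPM filter 1018 (lower E2) and 757 (highest linuron), and only the fish compared 15 (lower linuron) and 1713 (highest linuron). The causes were not tested.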

Other observations

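The share of igfbp2a counts on contig comp98214_c0_seq1 was also taken in the exposed groups other than 34.4 ng E2/l. It was 3.81 to 12.4% at 1.9 ng E2/l and 4.14 to 7.17% at 18.1 ng E2/l, and 2.31 to 9.7%, 0 to 7.5% and 1.6 to 4.7% from the lowest to the highest linuron concentration, against 3.59 to 15.5% in controls. These are values with no test.

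Most like igfbp1b over the 24 fish were an OAF homolog (r = 0.84), complement component 8 beta (0.81) and matrix metalloproteinase 9 (0.80). For igfals they were neurofibromin 2b (0.82), jumonji, AT rich interactive domain 2b (0.80) and pescadillo (0.78). For igfbp5b they were kdm4b (0.77), an F-box protein 9 contig (0.74) and an uncharacterized protein (0.74). For igfbp7 they were a MAD homolog 2 contig (0.70), an ARFGEF2 contig (0.68) and a VAMP-associated protein contig (0.67). These are the highest of 27905 contigs searched, a choice that by itself raises r, and they were not tested.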
